A study of Mus musculus with 8 samples.

Results

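Solute carriers are the membrane proteins that move amino acids, sugars, monocarboxylates, fatty acids, metal ions and other small molecules into and out of cells and organelles. The genes described here belong to 12 families, Slc1a, Slc2a, Slc3a, Slc5a, Slc6a, Slc7a, Slc16a, Slc27a, Slc36a, Slc38a, Slc39a and Slc43a, and were taken by symbol alone. Earlier results of these data were known when these genes were chosen. In all, 124 of the 23503 genes in the tables carry such a symbol. Of these, 49 had at least 1 FPKM (fragments mapped to a gene, divided by its transcript length and by the depth of the library) in at least 4 of the 8 libraries and could be tested between groups. The other 75 were below that level, 59 of them under 1 FPKM in every library, including 11 listed at 0 throughout, and 16 reaching 1 FPKM in 1 to 3 libraries. The symbols Slc7a6os, Slc2a4rg-ps and Slc36a1os also start with a family prefix but do not name transporters, and only the first could be tested.

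The libraries were made from mesenchymal stem cells of mouse bone marrow, stromal progenitors grown in culture for fewer than 20 passages, in which p53 is knocked out in every group. The cFos group holds the single clones 2, 4, 8 and 12 transduced with a retrovirus carrying cFos, a subunit of the AP-1 transcription factor, and the Luc group holds the same 4 clones with a luciferase retrovirus as control. Each clone gave 1 polyadenylated RNA library per virus, so a group has 4 libraries, its spread is the spread between clones, and a difference within 1 clone has no replicate. No untransduced cells and no p53 wild-type cells are among the samples. Fos stood at 505 to 1020 FPKM in the cFos libraries and 41.1 to 302 FPKM in the Luc libraries, with Luc clone 8 the highest of Luc. Trp53 was listed at 6.58 ± 0.246 FPKM in cFos and 7.67 ± 1.30 FPKM in Luc (SD, n = 4), and the labels do not say which part of it was removed. Depth, taken as coverage times transcript length, was 6.93 to 9.14 gigabases per library. Of 12 stromal markers 9 were tested and 2, Vim and Pdgfrb, rose, where 2.92% of all tested genes did. Without any 1 library Vim kept its call (limma adjusted p up to 0.0296), Pdgfrb lost it when cFos 2, cFos 4, cFos 8, Luc 2, Luc 8 or Luc 12 was left out (up to 0.129), and Cd44 rose only with the clone as a block (0.232 without the block and 0.0204 with it). The sum of the 12 was 7420 to 11100 FPKM in cFos and 3760 to 6910 FPKM in Luc, most of it Col1a1, Col1a2 and Vim. Vcam1 was the tested marker with a lower fitted level in cFos (27.3 ± 7.55 FPKM, against 60.4 ± 73.5 FPKM in Luc, log2 fold change -0.49). Pdgfra was at 102 ± 26.4 FPKM in cFos and 73.8 ± 53.1 FPKM in Luc. Ly6a was at 156 ± 59.8 FPKM in cFos and 123 ± 99.9 FPKM in Luc, with 9.59 FPKM in Luc 8. Vcam1, Pdgfra and Ly6a did not pass. Col1a1 and Col1a2 stood at 831 FPKM or more in every library and Vim stood at 3350 to 6580 FPKM in cFos and 977 to 1840 FPKM in Luc, whereas the surface markers Eng, Nt5e and Thy1 were low or differed by clone. Eng was at 0.501 to 2.12 FPKM in cFos and 0.258 to 1.28 FPKM in Luc, and Nt5e at 0.552 to 7.94 FPKM in cFos and 0.167 to 2.48 FPKM in Luc. Thy1 was at 0.142, 0.398, 15.9 and 23.8 FPKM in cFos clones 2, 4, 8 and 12 and at 0.672, 0.0916, 0.597 and 21.9 FPKM in Luc. Lepr, a defining marker of marrow stroma, was at 0.0314 to 0.816 FPKM in cFos and 0.105 to 1.39 FPKM in Luc. The 6 blood markers summed to 1.37 to 2.32 FPKM in cFos and 0.918 to 2.70 FPKM in Luc, nearly all of it Cd14, with Ptprc at most at 0.0115 FPKM in cFos and 0.0718 FPKM in Luc. Endothelial markers summed to at most 0.110 FPKM in cFos and 0.391 FPKM in Luc, epithelial markers to at most 0.696 and 0.374 FPKM, and neural markers to at most 4.19 and 0.633 FPKM. The neural sum was mostly Map2, at 0.370 to 3.91 FPKM in cFos and 0.0144 to 0.368 FPKM in Luc, while Rbfox3 was at or near 0. The part of these markers in the carriers' values was not tested.

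Amino acid carriers work in linked steps. Uniporters and sodium-coupled carriers load the cell, and exchangers such as the Slc7a5-Slc3a2 pair then trade one amino acid for another. Many of their genes are induced by the transcription factor ATF4 when amino acids run short, through C/EBP-ATF elements in their promoters, and the lactate and zinc carriers take part in fuel use and in the supply of metal to secreted enzymes.

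The windows below, from 250 bases before to 50 bases after the start site, are printed for 3 tested amino acid carriers picked by direction and by motif. Each was higher in cFos than in Luc in all 4 clones, and a window of each holds a motif searched. Picked in this way, they cannot tell whether a motif goes with a rise. Without the clone as a block none passed (limma adjusted p = 0.327 for Slc1a4, 0.649 for Slc7a11 and 0.228 for Slc7a1). With it only Slc1a4 did (0.0143). Slc1a4 encodes the neutral amino acid carrier ASCT1, Slc7a11 the cystine-glutamate exchanger xCT and Slc7a1 the arginine and lysine carrier CAT-1, for which 1 of its 2 windows is shown. They are RefSeq sequences of build GRCm38.p6, read 5′ to 3′ on the strand of the gene, which is the minus strand for all 3: chr11:20332664-20332963 for Slc1a4, chr3:50443564-50443863 for Slc7a11 and chr5:148399855-148400154 for Slc7a1. Capitals mark the C/EBP-ATF letters TGATGNAA on either strand in Slc1a4 and Slc7a11, and the AP-1 letters TGANTCA in Slc7a1.
Slc1a4: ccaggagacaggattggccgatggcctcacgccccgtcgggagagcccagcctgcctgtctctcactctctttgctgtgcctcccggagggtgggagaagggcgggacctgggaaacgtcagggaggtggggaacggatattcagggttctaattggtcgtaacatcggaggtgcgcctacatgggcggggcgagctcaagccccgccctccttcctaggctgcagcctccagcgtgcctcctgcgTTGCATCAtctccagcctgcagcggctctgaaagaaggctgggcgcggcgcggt
Slc7a11: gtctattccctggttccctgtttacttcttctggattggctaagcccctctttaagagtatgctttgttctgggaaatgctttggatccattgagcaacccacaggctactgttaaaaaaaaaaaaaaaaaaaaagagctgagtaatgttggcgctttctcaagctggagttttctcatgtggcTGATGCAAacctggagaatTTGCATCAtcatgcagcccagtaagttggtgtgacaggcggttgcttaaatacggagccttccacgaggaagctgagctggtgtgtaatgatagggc
Slc7a1: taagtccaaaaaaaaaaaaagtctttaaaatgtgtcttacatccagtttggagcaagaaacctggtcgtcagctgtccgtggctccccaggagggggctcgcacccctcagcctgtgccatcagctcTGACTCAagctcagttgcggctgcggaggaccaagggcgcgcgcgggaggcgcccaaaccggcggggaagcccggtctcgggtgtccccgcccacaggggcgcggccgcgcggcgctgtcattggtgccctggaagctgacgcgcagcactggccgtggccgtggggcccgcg
The Slc7a11 window holds 2 copies of the C/EBP-ATF letters in opposite orientations, starting 66 and 47 bases before the start site, and the copy of Slc1a4 spans its start site. The AP-1 letters of Slc7a1 start 123 bases before its start site. RefSeq windows were at hand for 90 of the 124 members, 119 windows in all. The AP-1 letters stood in 8.40% of the members' windows and in 7.81% of all 32851 windows, the C/EBP-ATF letters in 4.20% and 3.97%, and the cyclic AMP element TGACGTCA in 0.840% and 1.79%. None of these motifs overlaps another in the 3 windows shown. Among tested members the AP-1 letters were found in Slc7a1, Slc38a7 and Slc38a10, the C/EBP-ATF letters in Slc1a4 and Slc7a11, and the cyclic AMP element in Slc38a6. Slc38a7, Slc38a10 and Slc38a6, whose windows are not shown, had log2 fold changes of -0.14, -0.09 and 0.01. Under the level tested, Slc6a17 holds the AP-1 letters and was higher in cFos in all 4 clones. Slc2a9 and Slc3a1 hold them too and were lower in cFos in all 4 clones. Slc6a5, Slc6a12 and Slc6a14, with the same letters, were at most at 0.119 FPKM in any library. These matches are letters in a window and were not measured as binding sites.

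Summed over all members, the carriers held 942, 940, 875 and 914 FPKM in cFos clones 2, 4, 8 and 12, against 892, 972, 906 and 939 FPKM in the Luc libraries of the same clones. The group sums, 918 ± 31.1 FPKM in cFos and 927 ± 35.5 FPKM in Luc (SD, n = 4), overlapped and differed by less than the SD of either. The zinc carriers of Slc39a were the most abundant family, with 314 ± 29.6 FPKM in cFos and 267 ± 35.7 FPKM in Luc. Slc38a, the sodium-coupled neutral amino acid carriers, followed with 146 ± 9.73 FPKM in cFos and 189 ± 34.7 FPKM in Luc. The Slc38a sums ran from 133 to 154 FPKM in the cFos libraries and from 160 to 235 FPKM in the Luc libraries, so the groups did not overlap. This was 1 of 12 family sums, which were not tested. None of its 6 tested genes passed the test or was itself apart between groups, and Slc38a2 held 49.0% of the sum. Slc5a, the sodium-coupled carriers of sugars, vitamins and inositol, had 12.5 ± 2.20 FPKM in cFos and 24.0 ± 22.4 FPKM in Luc, where Luc clone 8 alone held 55.6 FPKM. FPKM is a level per length of transcript and a share of the library, so fewer cells with a carrier and less of its RNA per cell cannot be told apart.

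**Figure D1:**
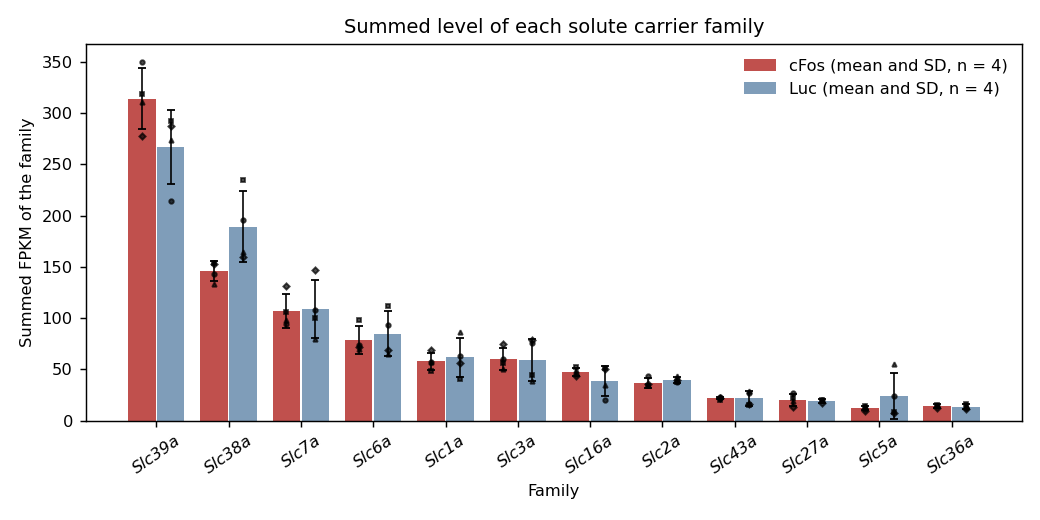
Summed FPKM of the members of each family, with bars and error bars for the mean and SD of the 4 libraries and a black symbol for each clone (circle 2, square 4, triangle 8, diamond 12). Slc39a was highest in both groups, at 314 in cFos and 267 in Luc. Slc38a was the family whose summed libraries did not overlap between groups, although none of its tested genes was itself apart.

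Whether cFos changed single carriers was tested with limma on log2(FPKM + 0.5) over 11162 genes, with Benjamini-Hochberg adjustment over all of them. This main model had no clone term, although both groups hold the same 4 clones. Of the 49 members tested, 1 rose (Slc39a6), 1 fell (Slc7a2) and 47 did not pass, so 4.08% were called, where 5.55% of all tested genes were (2.92% rose and 2.62% fell). The members' share was thus near the background. The median log2 fold change was -0.02 over the tested members and -0.06 over all tested genes. Median absolute differences were 0.33 for the members and 0.21 for all genes, with median standard errors of 0.26 and 0.19. At an unadjusted p under 0.05, 4 members were higher and 5 lower in cFos (8.16% and 10.2%, against 9.06% and 11.1% of all tested genes), and fitted differences of at least 2-fold were 2 higher and 3 lower (4.08% and 6.12%, against 3.92% and 3.76%). With the clone number as a block in the model, 3 members rose and 3 fell (6.12% each, against 4.51% and 4.28% of all tested genes, or 12.2% against 8.79% in both directions), the added ones being Slc1a4 and Slc16a10 among the rises and Slc1a6 and Slc7a6os among the falls. Groups did not overlap for 2 tested members that were higher in cFos (4.08%, against 5.86% of all tested genes) and 3 that were lower (6.12%, against 7.80%).

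Slc7a2 encodes CAT-2, a carrier of arginine, lysine and ornithine, and lies on chromosome 8 (41947721 to 42007424, mm9). It stood at 1.81, 2.31, 2.60 and 5.79 FPKM in cFos clones 2, 4, 8 and 12, against 7.20, 8.58, 12.3 and 13.1 FPKM in the Luc libraries of those clones. Every cFos library lay below every Luc library, and clone 12 was the highest of both groups. The mean was 3.13 ± 1.80 FPKM in cFos and 10.3 ± 2.84 FPKM in Luc (SD, n = 4), which is -1.65 on the log2 scale (SE 0.32, limma adjusted p = 0.0213, and 0.00559 with the clone as a block). Within clones the ratio of cFos to Luc was 0.252, 0.269, 0.212 and 0.442. The call ended without cFos 2, cFos 4 or cFos 8 (adjusted p up to 0.0692) and with no filter on low genes (0.0563). Of its 2 listed transcripts, NM_001044740 held most of the level, at 1.70 to 5.07 FPKM in cFos and 6.86 to 12.0 FPKM in Luc, and since they share nearly all their bases that split is an estimate.

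Slc39a6 encodes ZIP6, a zinc importer of the plasma membrane (chromosome 18, 24738382 to 24762318). Its levels were 40.0, 34.8, 34.6 and 29.3 FPKM in cFos clones 2, 4, 8 and 12, against 20.5, 23.3, 16.8 and 24.9 FPKM in Luc. All cFos libraries exceeded all Luc libraries, with clone 12 the closest pair. The mean was 34.7 ± 4.38 FPKM in cFos and 21.4 ± 3.56 FPKM in Luc, which is 0.69 on the log2 scale (SE 0.16, limma adjusted p = 0.0368, and 0.0497 with the block). Ratios within clones were 1.95, 1.49, 2.06 and 1.17. Without any 1 of cFos 2, cFos 4, cFos 8, Luc 2, Luc 4 or Luc 8 the adjusted p lay above the threshold, up to 0.116, and with no filter on low genes it was 0.0563.

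**Figure D2:**
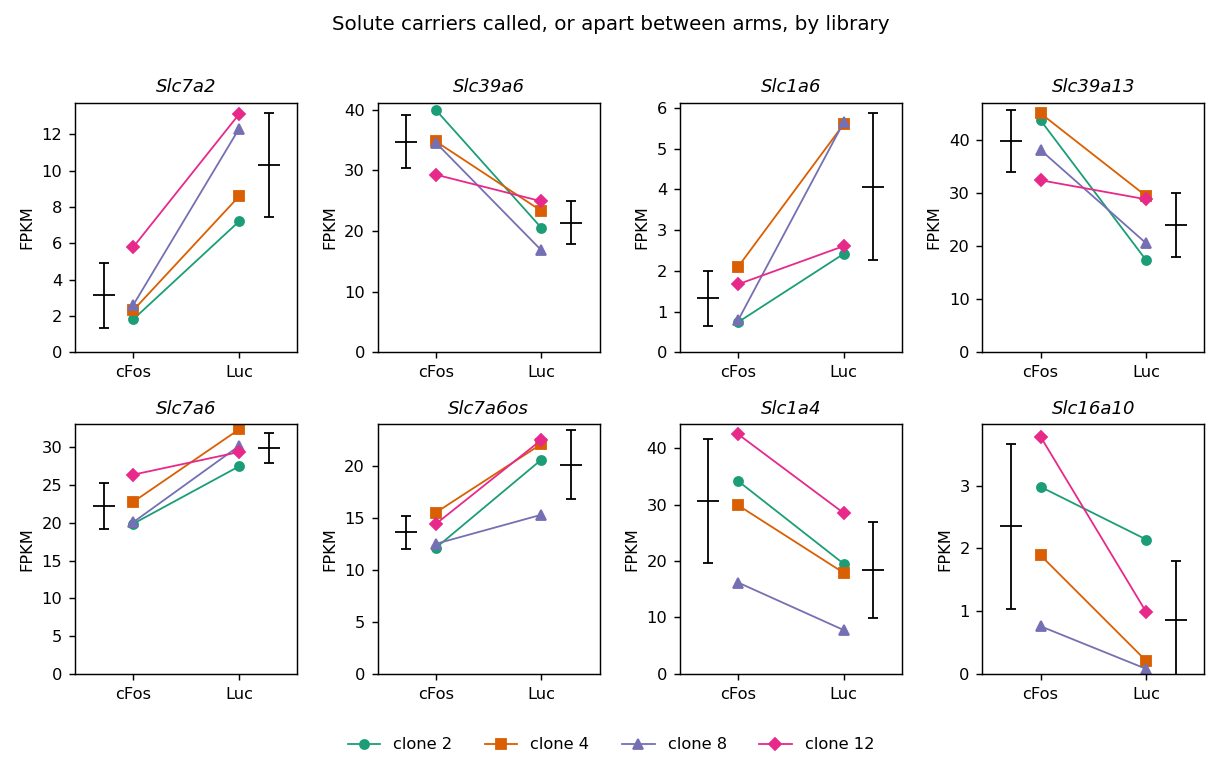
FPKM of 8 members in the cFos and Luc libraries, with a line joining the 2 libraries of a clone and black marks for the mean and SD (n = 4). In Slc7a2, Slc1a6 and Slc7a6 every cFos library lies below every Luc library, and in Slc39a6 and Slc39a13 above.

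Of the other zinc carriers, Slc39a13, which encodes the vesicular carrier ZIP13, was also apart between groups (chromosome 2, 90901948 to 90910378). It stood at 43.7, 45.0, 38.1 and 32.4 FPKM in cFos clones 2, 4, 8 and 12, against 17.3, 29.4, 20.5 and 28.8 FPKM in Luc. The lowest cFos library, that of clone 12, was above the highest Luc library, that of clone 4, but the difference missed the threshold (log2 fold change 0.74, SE 0.20, limma adjusted p = 0.0658, and 0.0651 with the block). Slc39a14, the ZIP14 carrier of zinc, iron and manganese, had 21.6 ± 2.60 FPKM in cFos and 16.5 ± 3.15 FPKM in Luc, higher in cFos in all 4 clones but not past the test (adjusted p = 0.218). Slc39a7, which releases zinc from the endoplasmic reticulum, was the most abundant member of all, at 123, 117, 104 and 89.6 FPKM in cFos and 88.4, 116, 97.5 and 110 FPKM in Luc. Its groups overlapped, and the log2 difference was 0.07 (SE 0.14). Slc39a1, a plasma membrane zinc importer, had 73.1 ± 9.77 FPKM in cFos and 64.5 ± 16.8 FPKM in Luc, its difference lying mostly in clone 2 (ratio 2.02, against 0.939 to 0.976 in the others). Across the 10 tested Slc39a genes, 1 rose and 9 did not pass, with a median log2 fold change of 0.14. On the side of zinc export and storage, 9 of 14 listed genes were tested. Where 2.92% of all tested genes rose, 1 of these 9 did. This was Slc30a4, the vesicular zinc exporter ZnT4, with 52.7, 40.7, 34.1 and 41.2 FPKM in cFos and 24.0, 23.1, 14.5 and 24.7 FPKM in Luc (log2 fold change 0.97, SE 0.20, limma adjusted p = 0.0269, ended without cFos 2, cFos 4, cFos 12 or Luc 4, up to 0.0863, and 0.0557 with no filter on low genes). The zinc-binding metallothionein Mt1 was at 112 ± 70.3 FPKM in cFos and 71.8 ± 41.6 FPKM in Luc and did not pass in either fit. Mt2 was at 48.6 ± 43.2 FPKM in cFos and 18.3 ± 15.1 FPKM in Luc, higher in each clone by ratios of 2.70, 2.28, 4.89 and 1.19. Its log2 difference of 1.26 had a standard error of 0.64 without the block and 0.30 with it (limma adjusted p = 0.316 and 0.0511).

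The Slc1a family carries glutamate, aspartate and neutral amino acids. Slc1a6, the glutamate carrier EAAT4 best known from cerebellar Purkinje cells (chromosome 10, 78243241 to 78277570), stood at 0.739, 2.10, 0.785 and 1.67 FPKM in cFos clones 2, 4, 8 and 12, against 2.42, 5.61, 5.66 and 2.61 FPKM in Luc. All cFos libraries lay below all Luc libraries at these low levels, with a mean coverage of 6.34 to 47.0 per base. Its log2 fold change was -1.31 (SE 0.35, limma adjusted p = 0.0696, and 0.0394 with the clone as a block). Slc1a3, the glial glutamate carrier GLAST, was lower in cFos in each clone but varied widely, at 0.168 to 1.97 FPKM in cFos and 0.353 to 8.08 FPKM in Luc (adjusted p = 0.247). It passed only without Luc 4 (0.0474). Slc1a4, whose window is shown above (chromosome 11, 20202183 to 20232716), had 34.2, 29.9, 16.2 and 42.5 FPKM in cFos and 19.5, 17.9, 7.76 and 28.5 FPKM in Luc. The groups overlap, yet each clone was higher with cFos, by ratios of 1.75, 1.67, 2.08 and 1.49. Its log2 fold change of 0.77 had a standard error of 0.40 without the clone in the model and 0.12 with it (limma adjusted p = 0.327 and 0.0143). Slc1a5, the glutamine carrier ASCT2, was the most abundant of the family, at 20.9, 16.5, 39.4 and 21.8 FPKM in cFos and 37.5, 16.4, 65.0 and 18.8 FPKM in Luc. It was highest in clone 8 in both groups and went in different directions in different clones (adjusted p = 0.728).

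Among the Slc7a carriers and the heavy chain Slc3a2, Slc7a2 gave the only call. Slc7a6, the y+LAT2 exchanger of arginine for neutral amino acids (chromosome 8, 108692775 to 108722604), had 22.3 ± 3.04 FPKM in cFos and 29.9 ± 2.02 FPKM in Luc. Its 4 cFos libraries, at 19.9 to 26.4 FPKM, lay below the 4 Luc libraries, at 27.5 to 32.4 FPKM, with a log2 fold change of -0.42 (SE 0.13) that missed the threshold (limma adjusted p = 0.0961). The neighbouring gene Slc7a6os, which does not overlap it (108724338 to 108734833), had 13.6 ± 1.58 FPKM in cFos and 20.1 ± 3.31 FPKM in Luc and was lower in each clone. It passed with the clone as a block (adjusted p = 0.0849 without it and 0.0456 with it) and without Luc 8 (0.0255). Slc7a1 was at 17.2, 15.7, 15.6 and 22.3 FPKM in cFos and 10.7, 9.82, 5.42 and 18.8 FPKM in Luc, higher in each clone and overlapping between groups (log2 fold change 0.75, SE 0.32, adjusted p = 0.228, and 0.0708 with the block). Slc7a5, the light chain LAT1 that imports large neutral amino acids, had 38.5, 44.2, 43.1 and 54.4 FPKM in cFos and 36.8, 23.3, 10.1 and 57.6 FPKM in Luc. The ratio was 4.28 in clone 8 and 1.90 in clone 4, but 1.05 in clone 2 and 0.943 in clone 12 (adjusted p = 0.404). Slc3a2, the heavy chain that carries LAT1 and xCT to the surface, was at 60.1 ± 10.5 FPKM in cFos and 59.2 ± 20.6 FPKM in Luc, a log2 difference of 0.07 with a standard error of 0.25. Slc7a11 was low, at 2.12, 1.45, 1.24 and 4.38 FPKM in cFos and 1.39, 1.32, 0.540 and 3.29 FPKM in Luc, higher in each clone by ratios of 1.53, 1.10, 2.30 and 1.33 (adjusted p = 0.649, and 0.202 with the block).

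**Figure D3:**
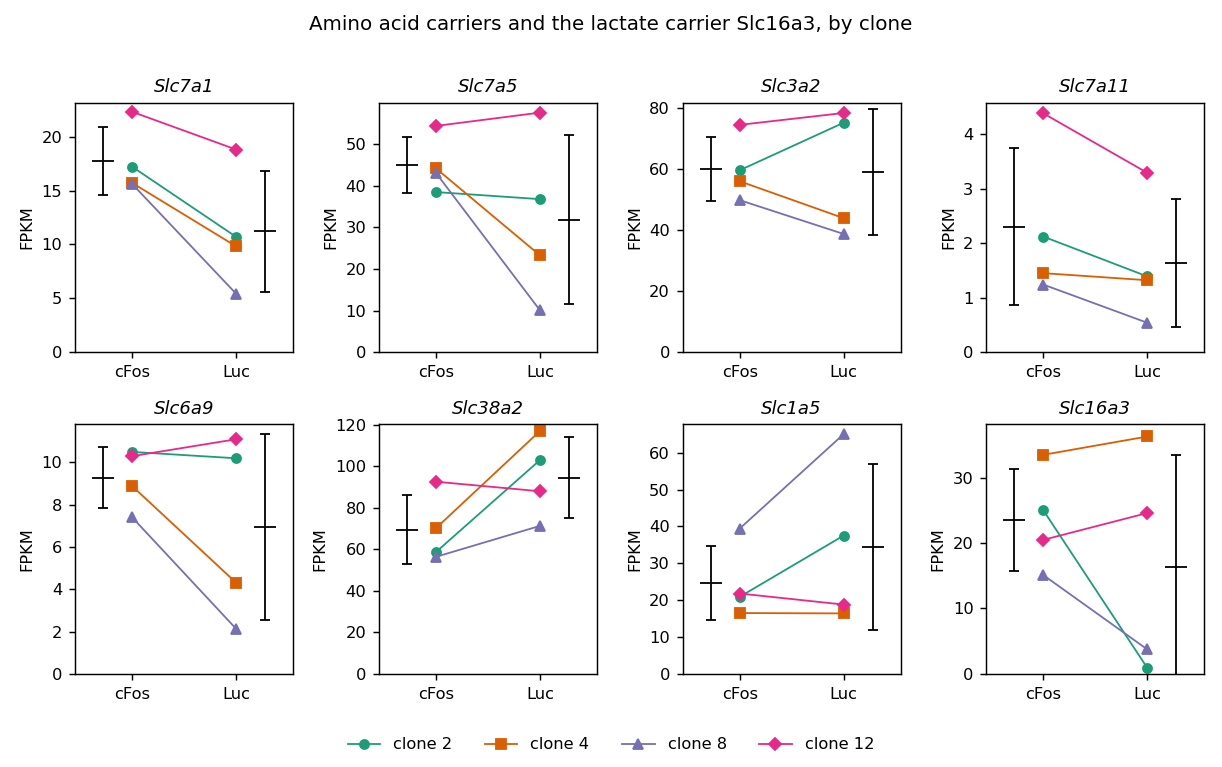
FPKM of 7 amino acid carriers and the lactate carrier Slc16a3 in the cFos and Luc libraries, with a line for each clone and black marks for the mean and SD (n = 4). Luc clone 8 is the lowest of the 8 libraries in Slc7a1, Slc7a5, Slc3a2, Slc7a11 and Slc6a9 and the highest in Slc1a5.

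Luc clone 8 was the lowest of the 8 libraries for Slc1a4, Slc3a2, Slc6a9, Slc7a1, Slc7a5, Slc7a11, Slc16a10 and Slc39a6, 8 of 49 tested members (16.3%, against 21.7% of all tested genes). It was the highest for 12 members (24.5%, against 19.0% of all tested genes), among them Slc1a3, Slc1a5 and the myo-inositol carrier Slc5a3. On the amino acid response list, Asns, the asparagine synthetase, was at 91.0, 82.0, 99.1 and 180.0 FPKM in cFos and 94.8, 52.2, 26.3 and 128 FPKM in Luc. Trib3, a target and inhibitor of ATF4 signalling, was at 17.2, 11.9, 10.4 and 20.3 FPKM in cFos and 7.90, 4.68, 1.83 and 15.7 FPKM in Luc. For both, Luc clone 8 was lowest and clone 12 highest of its group. Of the 16 genes on that list, all tested, none passed in limma. At an unadjusted p under 0.05, 5 were higher and 1 lower in cFos, where 9.06% and 11.1% of all tested genes were. In the fit that blocks by clone 4 of the 16, Trib3, Chac1, Psph and Pycr1, rose and none fell. With the block 4.51% of all tested genes rose and 4.28% fell. The list's median log2 fold change was 0.64, beside -0.06 over all tested genes. Of the amino acid sensing list at the lysosome, 18 of 19 genes were tested and none passed (0 higher and 1 lower at an unadjusted p under 0.05, none with the block), the member of that machinery among the carriers being Slc38a9, at 0.649 to 0.974 FPKM in cFos and 0.631 to 0.934 FPKM in Luc and so under the level tested. Among 4 tested genes that make glutathione from cystine none passed (1 higher at an unadjusted p under 0.05), and Cth, which makes cysteine, rose with the clone as a block (18.4 ± 15.6 FPKM in cFos and 5.27 ± 5.86 FPKM in Luc, limma adjusted p = 0.149 without the block and 0.00448 with it).

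Among the Slc38a carriers, Slc38a2, the amino acid-responsive carrier SNAT2, was the most abundant. It stood at 58.7, 70.2, 56.4 and 92.6 FPKM in cFos clones 2, 4, 8 and 12, against 103, 117, 71.3 and 88.0 FPKM in Luc. It was lower in cFos in 3 clones and not in clone 12, with a log2 difference of -0.45 (SE 0.20, limma adjusted p = 0.257). Slc38a4, another neutral amino acid carrier and an imprinted gene, had 22.1, 18.8, 22.2 and 3.52 FPKM in cFos and 31.1, 39.1, 28.2 and 16.2 FPKM in Luc, lower in each clone but overlapping between groups (adjusted p = 0.361, and 0.0874 with the block). Slc38a1, the glutamine carrier SNAT1, was the most variable, at 1.13, 1.26, 0.125 and 10.6 FPKM in cFos and 9.11, 3.31, 0.247 and 5.70 FPKM in Luc. Clone 8 was lowest in both groups, and the highest library was cFos 12. Slc38a10 differed by less than its spread, with 43.5 ± 7.22 FPKM in cFos and 46.8 ± 10.6 FPKM in Luc. In the glutamine and glutamate list, 2 of 6 tested genes rose and none fell, where 2.92% and 2.62% of all tested genes did. Glul, the glutamine synthetase, had 18.6, 14.6, 21.7 and 22.9 FPKM in cFos and 3.25, 4.58, 7.56 and 9.72 FPKM in Luc (log2 fold change 1.64, SE 0.31, limma adjusted p = 0.0174). Glud1, the glutamate dehydrogenase, had 132, 98.7, 150.0 and 103 FPKM in cFos and 62.6, 62.6, 51.0 and 69.5 FPKM in Luc (0.96, SE 0.17, adjusted p = 0.0138). Neither gene's groups overlapped, and Gpt2, an alanine transaminase, rose only in the fit with the block (19.5 ± 10.2 FPKM in cFos and 12.5 ± 8.35 FPKM in Luc, adjusted p = 0.426 without the block and 0.0230 with it). Glul lost its call without cFos 2 or cFos 8 (up to 0.0585) and Glud1 without cFos 2 (0.0558).

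The monocarboxylate carriers of Slc16a move lactate, pyruvate, aromatic amino acids and thyroid hormone. Slc16a3, the lactate exporter MCT4, was at 25.0, 33.5, 15.1 and 20.5 FPKM in cFos and 0.915, 36.3, 3.74 and 24.6 FPKM in Luc. The 4 cFos libraries lay within a 2.22-fold range, whereas the Luc libraries spanned 39.7-fold, with clones 2 and 8 low and clones 4 and 12 as high as cFos. The log2 fold change of 1.42 had a standard error of 0.92 (limma adjusted p = 0.439), and the ratio within clones was 27.3, 0.923, 4.03 and 0.833. Slc16a1, the lactate carrier MCT1, had 12.5 ± 5.37 FPKM in cFos and 11.2 ± 3.21 FPKM in Luc. Slc16a10, the aromatic amino acid carrier TAT1 (chromosome 10, 39753341 to 39862060), was low but higher in each clone with cFos, at 2.98, 1.89, 0.759 and 3.78 FPKM in cFos and 2.14, 0.206, 0.0789 and 0.983 FPKM in Luc (log2 fold change 1.20, SE 0.54, adjusted p = 0.256). With the clone as a block its standard error was 0.26 and its adjusted p 0.0412. Its mean coverage, summed over 2 transcripts, was only 0.502 per base in Luc 8 and 1.66 in Luc 4, and at most 29.3, in cFos 2. In the list of lactate and glucose use, 2 of 9 genes fell and none rose, where 2.62% and 2.92% of all tested genes did. Emb, embigin, an ancillary protein of monocarboxylate carriers, had 4.40, 5.16, 6.70 and 11.6 FPKM in cFos and 27.3, 32.7, 29.2 and 16.6 FPKM in Luc (log2 fold change -1.90, SE 0.30, limma adjusted p = 0.00911, at most 0.0366 without any 1 library). Ldhb, the lactate dehydrogenase subunit that favours pyruvate, had 13.6, 28.4, 15.8 and 59.8 FPKM in cFos and 105, 73.5, 102 and 222 FPKM in Luc (-2.20, SE 0.48, adjusted p = 0.0329). The call was lost when cFos 2, cFos 4, cFos 8, Luc 2, Luc 8 or Luc 12 was left out (up to 0.0990) and with no filter on low genes (0.0794). Bsg, basigin, the other ancillary protein, was abundant and similar, with 517 ± 37.0 FPKM in cFos and 483 ± 97.3 FPKM in Luc.

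**Figure D4:**
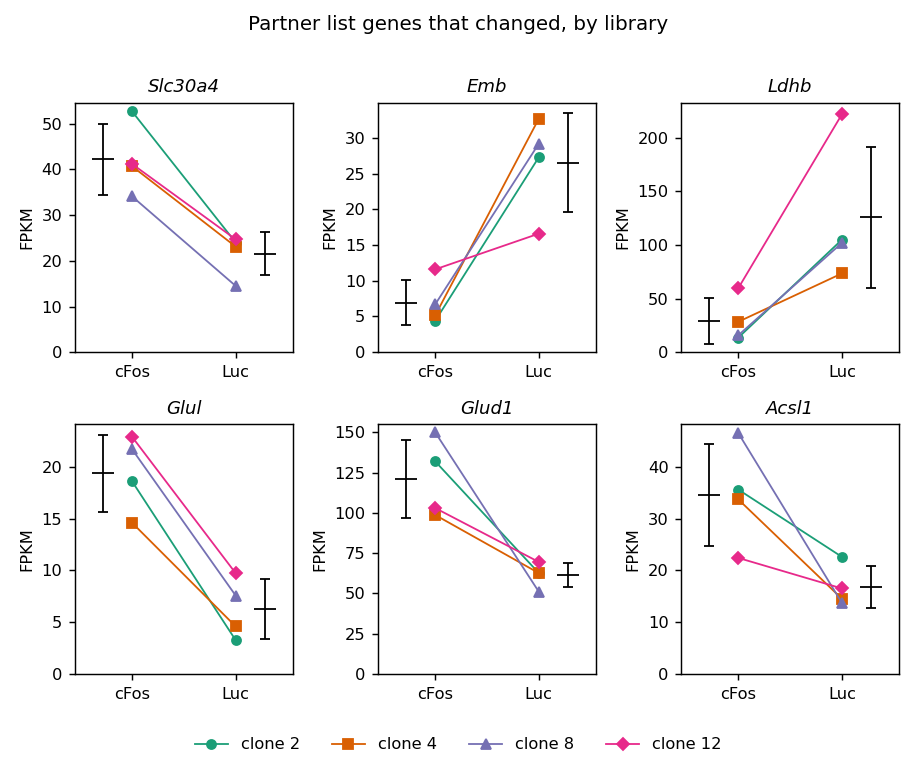
FPKM of the 6 genes of the partner lists that passed the test, in the cFos and Luc libraries, with a line for each clone and black marks for the mean and SD (n = 4). Emb and Ldhb are lower and Slc30a4, Glul, Glud1 and Acsl1 higher in the cFos library of each clone.

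The Slc2a family carries glucose and other hexoses. Slc2a1, the basal glucose carrier GLUT1, stood at 23.8, 21.2, 20.4 and 21.9 FPKM in cFos and 21.7, 24.8, 21.0 and 26.8 FPKM in Luc, with 1 clone higher and 3 lower in cFos and a log2 difference of -0.10 (SE 0.12, limma adjusted p = 0.686). None of the 4 tested Slc2a genes passed. Slc2a3, the high-affinity carrier GLUT3, was near 1 FPKM, at 0.869 ± 0.575 FPKM in cFos and 1.11 ± 0.713 FPKM in Luc. Slc2a4, the insulin-responsive carrier GLUT4, reached 1.41 FPKM in Luc 8 and was under 0.5 FPKM elsewhere. The fatty acid carriers were also without a call. Slc27a4, the most abundant of them, had 10.6 ± 1.46 FPKM in cFos and 12.4 ± 1.49 FPKM in Luc, and Slc27a1 had 8.10 ± 4.36 FPKM in cFos and 5.08 ± 1.68 FPKM in Luc. Where 2.92% of all tested genes rose, 1 of 8 genes in the list for fatty acid uptake and activation did. It was Acsl1, the acyl-CoA synthetase, at 34.5 ± 9.87 FPKM in cFos and 16.8 ± 4.05 FPKM in Luc (limma adjusted p = 0.0442, ended without cFos 2, cFos 4, cFos 8, Luc 4, Luc 8 or Luc 12, up to 0.130, and 0.0864 with no filter on low genes). Fabp3, a fatty acid-binding protein of muscle, fell only with the clone as a block (3.05 ± 1.39 FPKM in cFos and 5.97 ± 2.13 FPKM in Luc, adjusted p = 0.144 without the block and 0.0205 with it).

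The remaining families gave no call. In Slc6a, Slc6a6, the taurine carrier, was at 43.1 ± 9.75 FPKM in cFos and 58.2 ± 20.3 FPKM in Luc, Slc6a8, the creatine carrier, at 22.8 ± 7.32 and 18.8 ± 3.47 FPKM, and Slc6a9, the glycine carrier GlyT1, at 9.28 ± 1.45 and 6.94 ± 4.40 FPKM. The other 17 Slc6a genes, among them carriers of neurotransmitters and of amino acids, were under the level tested. In Slc5a, Slc5a3 stood at 7.02, 10.1, 11.9 and 7.96 FPKM in cFos and 17.4, 4.94, 53.4 and 4.68 FPKM in Luc, with opposite directions in clones 2 and 8 and in clones 4 and 12. Slc36a1 and Slc36a4, proton-coupled amino acid carriers, had 6.39 ± 1.72 and 7.77 ± 0.445 FPKM in cFos and 5.56 ± 1.76 and 7.93 ± 1.68 FPKM in Luc. In Slc43a, Slc43a3, a purine nucleobase carrier, was at 12.9 ± 1.68 FPKM in cFos and 15.1 ± 4.89 FPKM in Luc.

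Among the members under the level tested, 64 were not at 0 in all libraries. For 4 of these all cFos libraries were above all Luc libraries (6.25%, against 3.95% of 7591 genes under the same level) and for 1, Slc3a1, they were below (1.56%, against 3.64%). Slc6a4, the serotonin carrier, was at 0.840, 1.03, 0.188 and 0.862 FPKM in cFos and 0.106, 0, 0.0201 and 0.0498 FPKM in Luc. Slc6a7, the brain proline carrier, was at 0.254 to 0.579 FPKM in cFos and 0.0326 to 0.121 FPKM in Luc. Slc7a4, a relative of the cationic carriers with no established substrate, was at 0.339 to 0.641 FPKM in cFos and 0.0844 to 0.202 FPKM in Luc. Slc6a2, the noradrenaline carrier, was the remaining gene, at 0.169 to 0.287 FPKM in cFos and 0.0443 to 0.152 FPKM in Luc. With no filter on low genes, Slc6a7 and Slc7a4 were the 2 members called, both higher in cFos, and Slc39a6 and Slc7a2 were not. The choline carrier Slc5a7 and the myo-inositol carrier Slc2a13 reached higher levels in single Luc libraries, 4.68 FPKM in Luc 2 and 5.29 FPKM in Luc 8.

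Within single clones, the number of tested members at least 2-fold apart on the log2(FPKM + 0.5) scale was largest in clone 8, with 7 higher and 6 lower in cFos (14.3% and 12.2%, against 7.14% and 6.84% of all tested genes). In clone 2, 4 were higher and 5 lower (8.16% and 10.2%, against 6.61% and 7.49%). Clone 4 had 3 higher and 4 lower (6.12% and 8.16%, against 3.99% and 3.50%), and clone 12 had 2 higher and 3 lower (4.08% and 6.12%, against 3.17% and 3.65%). Luc clone 8, the library with 302 FPKM of Fos, is 1 side of the clone 8 comparison, and the part of its Fos level in these values was not tested. The level was higher in cFos in all 4 clones for 8 tested members (16.3%, against 15.3% of all tested genes) and lower in all 4 for 6 (12.2%, against 20.9%).

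**Figure D5:**
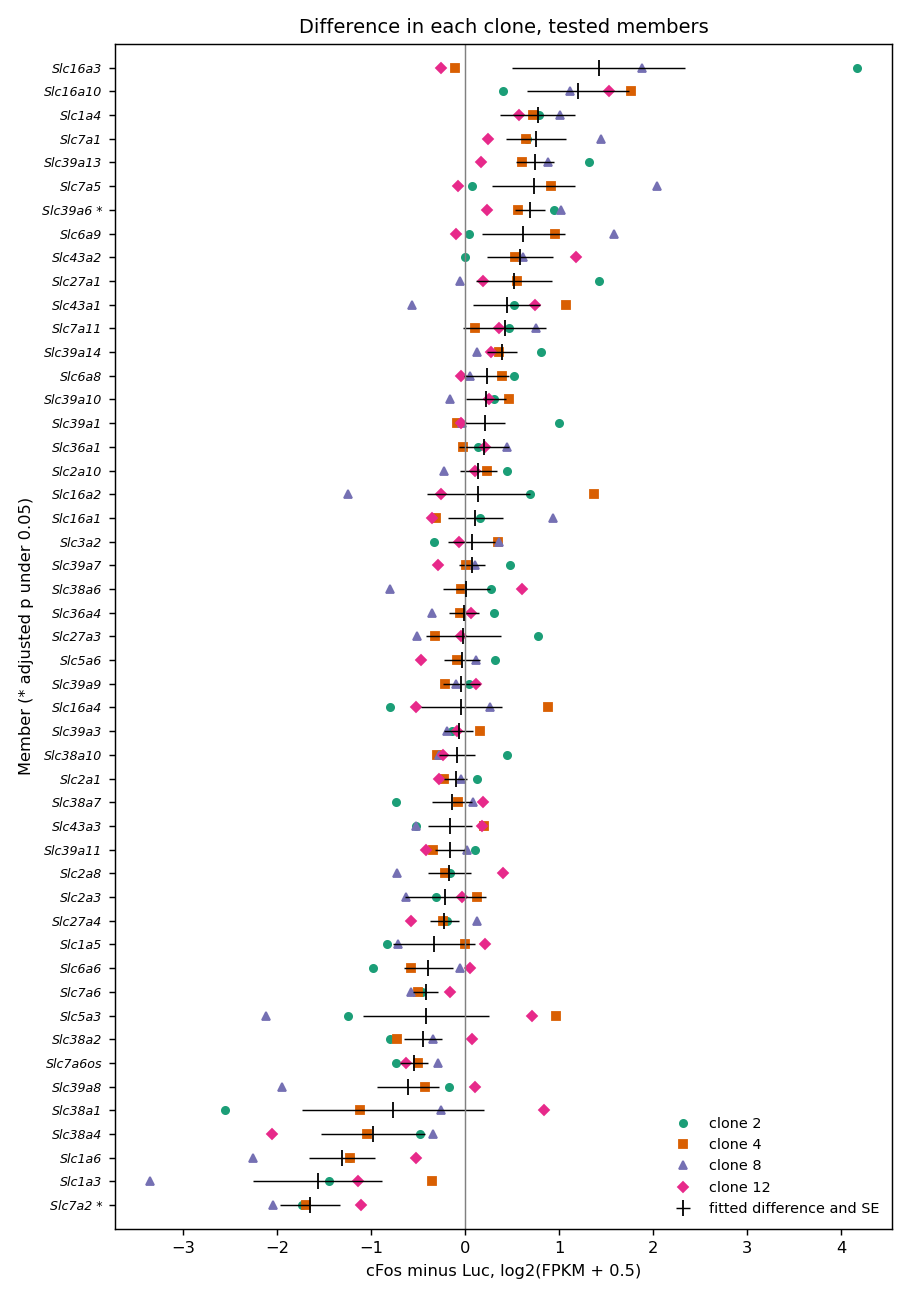
Difference of cFos minus Luc in log2(FPKM + 0.5) for the 49 tested members, with a symbol for each clone and a black mark for the fitted difference and its SE. Slc7a2 lies at -1.65 and Slc39a6 at 0.69, the 2 members marked with an asterisk, and the 4 clones of Slc16a3 range from -0.26 to 4.17.

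Whether members differ between clones was tested by an F test in limma, fitted with the virus and the clones together. None of the 49 members passed after adjustment, where 0.484% of all tested genes did, while 17 members had an unadjusted p under 0.05 (34.7%, against 16.5% of all tested genes). The smallest adjusted p was that of Slc1a4 (0.0502), followed by Slc7a11 (0.112), Slc1a5 (0.146), Slc16a10 (0.167) and Slc36a1 (0.171). Slc1a4, Slc7a11 and Slc16a10 were lowest in clone 8 and highest in clone 12 in cFos, whereas Slc1a5 was highest in clone 8 in both groups. Slc36a1 was lowest in clone 12 in both groups, at 3.90 FPKM in cFos and 3.29 FPKM in Luc.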

How the data were processed

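Polyadenylated RNA of 8 cultures was sequenced from Illumina TruSeq libraries, per the labels' protocols. CASAVA 1.8.2, TopHat and Cufflinks with build mm9 are named in the submitters' processing notes, and no other version, option or annotation release was found in those notes. The deposited tables, per the file headers, list RefSeq transcripts with FPKM estimated by the authors, its confidence limits and the coverage, a signal that is mean depth per base and not normalized. The deposited confidence limits were not used, and no interval for counting error was computed. Coordinates are mm9, counted from 1.

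Of 30769 entries, 30227 were named from RefSeq and 180 from GENCODE vM21, and 362 (0.828% of FPKM) kept their accession. FPKM was summed per symbol into 23503 genes, and 3 genes with a failed status in any library were left out. The test was limma 3.58.1 in R 4.3.3 (eBayes with trend) on log2(FPKM + 0.5), two-sided, for genes that reached 1 FPKM in 4 or more libraries, called at an adjusted p under 0.05. The pseudocount understates the change of low genes. Python 3.11.15, pandas 2.3.3, numpy 2.4.6 and matplotlib 3.10.9 were used. The code was tested on simulated data.

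Clone numbers pair the libraries, since the 2 libraries of a number come from the same clone. Deviations from the group means correlated by 0.174, 0.593, 0.349 and 0.437 within clones 2, 4, 8 and 12. Between different clones the correlations were -0.381 to -0.00861. The main model has no clone term, so its standard errors hold the spread between clones, and the fit with the clone as a block is an alternative. Calls between cFos and Luc with 1 library left out come from the main model. Others were pseudocounts of 0.1 and 1, no filter, a minimum of 5 FPKM, median ratio scaling, the highest transcript in place of the sum, and each library left out.

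Members were taken by symbol alone, but earlier results of these data were known when the members, lists and tests were chosen. Genes named are members called in either fit or apart between groups, the most abundant of each family, 9 members of known role, the 5 of smallest p between clones and up to 4 per partner list, and others were chosen after their values were seen.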

Additional observations from a re-analysis of the deposited data

How the results depend on the processing

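The 2 called members were Slc39a6 and Slc7a2 under pseudocounts of 0.1 and 1, a minimum of 5 FPKM, median ratio scaling and the highest transcript in place of the sum. With the clone as a replicate block, 3 members rose and 3 fell, 503 genes in all rose and 478 fell, and 10 partner list genes rose and 3 fell. With no filter, 2 members rose and 0 fell, 175 genes in all fell, and 2 partner list genes rose (Glul and Glud1) and 1 fell (Emb). The values without 1 library each, over the same genes, were 0 to 1 members risen, 0 to 2 members fallen, 150 to 319 genes risen, 85 to 295 genes fallen, 0 to 7 partner genes risen and 1 to 2 fallen. No member was called without cFos 2, cFos 4 or cFos 8. Between clones 0 members passed under any alternative, and the count over all genes, 54, was 0 with no filter, 6 at 5 FPKM, 0 with the clone terms alone and 0 to 115 without 1 library. The cause was not tested.

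Of the 52 single genes named by rule, 45 kept their direction under all alternatives run. Slc36a4 turned to 0.04 with median ratio scaling. The other turns in sign came with 1 library left out, in 7 genes of which none was called. The ranges were -0.14 to 0.28 for Slc16a1, -0.61 to 0.04 for Slc1a5, -0.01 to 0.40 for Slc36a1, -0.14 to 0.10 for Slc36a4, -0.10 to 0.23 for Slc3a2, -0.86 to 0.27 for Slc5a3 and -0.19 to 0.09 for Gclc.

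Read counts are not in the files, and the precision of members under 1 FPKM was not computed from coverage or from the deposited confidence limits. Each group has 1 library per clone, and nothing separates a clone from its culture.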
